A study of Mus musculus with 6 samples.

Results

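Iron storage and transport genes were followed in the hippocampus of mice given methamphetamine (MA) or saline. The 9 members were chosen by symbol: Fth1 and Ftl1 (ferritin), Trf, Tfrc and Slc11a2 (uptake), Slc40a1 and Cp (export), and Aco1 and Ireb2 (the iron regulatory proteins). Each symbol stood on 1 row of the 16060 rows of the table, and all 9 rows were among the 13321 rows that passed the filter on low values. RNA was sequenced from the hippocampus of 3 Control and 3 MA mice, each library labelled as from a single mouse, to compare gene expression after repeated MA with that after saline. All were adult male C57BL/6 mice. The MA mice received MA at 5, 10 and 15 mg/kg in successive weeks and the Control mice intraperitoneal saline, and behavioral tests on day 22 preceded sacrifice. Age is given only as adult. Groups are named throughout by the sample labels and column names, on which every direction given here rests. Whether the columns carry the right group was not settled. Immediate early genes are known to be induced by neuronal activity and stimulant drugs. For 6 of 6 such genes read, every library labelled MA was lower than every Control library, beside 10.2% of all tested genes. Of the 6, 5 passed an adjusted p under 0.05 (limma), beside 0.263% of all tested genes. The 6 genes were named after their values were seen. Fos was lower by 1.61 on the log2 scale, Egr1 by 1.46, Arc by 1.80 and Nr4a1 by 1.45. The paper instead reports Fos, Egr1, Arc and Nr4a1 as upregulated by MA, in its sequencing and by quantitative PCR. Had the groups been exchanged, the sign of every difference of MA minus Control below would turn.

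Iron enters most brain cells when the transferrin receptor takes up iron-loaded transferrin, and the divalent metal transporter then moves the reduced iron out of the endosome. Spare iron is held in the ferritin shell, and ferroportin, helped by a ferroxidase, returns iron to the outside. When iron is scarce, the iron regulatory proteins bind a hairpin called the iron-responsive element. A hairpin in the 5′ untranslated region blocks translation of ferritin and ferroportin mRNA, whereas hairpins in the 3′ untranslated region protect the transferrin receptor mRNA from decay. In brain, oligodendrocytes make most transferrin and are rich in ferritin, and capillary endothelium carries much of the transferrin receptor.

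The hairpins are shown because they divide the members that carry them into mRNAs controlled at translation and mRNAs controlled by decay. Only the second kind of control would be visible in an RNA level. GENCODE M21 transcripts (GRCm38) were searched on the sense strand for CNNNNNCAGTGN followed by 5 bases able to pair, G-U pairs included, with the 5 N after the first C. The unpaired C and the loop are in capitals.
Fth1: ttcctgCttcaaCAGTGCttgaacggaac
Ftl1: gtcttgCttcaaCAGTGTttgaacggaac
Slc40a1: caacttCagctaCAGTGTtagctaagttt
Tfrc site a: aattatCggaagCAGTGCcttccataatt
Tfrc site b: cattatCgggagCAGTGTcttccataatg
Tfrc site c: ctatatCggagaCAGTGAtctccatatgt
Tfrc site d: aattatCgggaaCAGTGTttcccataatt
The first 3 lie in 5′ untranslated regions, at chr19:9982732-9982760 (plus strand), chr7:45459779-45459807 (minus) and chr1:45925465-45925493 (minus). The 4 Tfrc sites lie in its 3′ untranslated region on the plus strand of chromosome 16 and stand at chr16:32631219-32631247, chr16:32631598-32631626, chr16:32631663-32631691 and chr16:32631710-32631738. The coding transcripts holding the site were 4 of 5 for Fth1, 1 of 2 for Ftl1, 1 of 4 for Slc40a1 and 1 of 3 for each Tfrc site. The gene-level values do not separate these transcripts from the rest. The match was found in the 5′ untranslated region of 0.142% of 21901 coding genes and in the 3′ untranslated region of 0.589%. Trf, Slc11a2, Cp, Aco1 and Ireb2 held no match to these letters in an untranslated region. An element in some Slc11a2 transcripts is well known, and the gene-level values do not separate transcripts with it from those without.

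The table held log-transformed values, taken here as log2 with an offset of 1. Above the median rank the libraries shared nearly the same distribution, so each value there follows the rank of the gene in its library. The low ends were not alike, with 0 rows at a value of 0 in MA replicate 3 and 259 to 437 in the other libraries. Slc40a1 and Cp ranked below the median in every library. Read totals were not part of the table and the depth is unknown. MA replicate 3 stood apart, with a mean Pearson correlation of 0.978 across genes with the other MA libraries, where the other 5 libraries had 0.984 to 0.993 within their group. Values without it are given beside the members it moved by over 1.5 times. Marker lists of 10 cell types were read as the sum of back-transformed values per library. Choroid plexus epithelium markers summed to between 71.6 and 426 in Control and between 1793 and 5122 in MA libraries. All 11 were higher in every MA library, beside 7.32% of all tested genes. Of them 5 passed an adjusted p under 0.05 (limma), Kl, Folr1, Clic6, Aqp1 and Slc4a5. Erythroid markers summed to between 1599 and 2024 in Control and between 3319 and 4378 in MA libraries, with all 5 higher in every MA library. Hba-a1, Hba-a2 and Hbb-bs passed the adjusted threshold. With the replicate number as a block, 2 of these 8 choroid plexus and erythroid genes, Clic6 and Aqp1, still passed (limma). The meningeal and fibroblast sum was 35.2 to 43.7 in Control and 77.0 to 103 in MA libraries, where 2 of its 6 genes, Dcn and Igf2, were higher in every MA library, 4 overlapped and 0 passed the adjusted threshold. Thalamic neuron markers were at 78.9 and 101 in MA replicates 1 and 2, above the Control range of 31.0 to 40.0, and at 29.0 in MA replicate 3. The groups overlapped in the summed markers of oligodendrocytes (3005 to 3318 in Control, 2799 to 3485 in MA), endothelium (168 to 188 and 184 to 222), microglia (233 to 249 and 239 to 250), astrocytes (1018 to 1096 and 892 to 1203) and neurons (2108 to 2259 and 1840 to 2421). The 7 hippocampal neuron markers were all detected. They summed to between 235 and 315 in Control and between 213 and 245 in MA libraries. Of them 3 of 7 were lower in every MA library, beside 10.2% of all tested genes, and 0 passed the adjusted threshold. All 7 had a lower mean in MA libraries, and all 8 thalamic markers a higher mean. Without MA replicate 3, 2 of 8 thalamic and 1 of 7 hippocampal markers passed the adjusted threshold (limma), beside 1.93% of all tested genes. Whether the samples differed in the tissue they held was not tested.

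**Figure D1:**
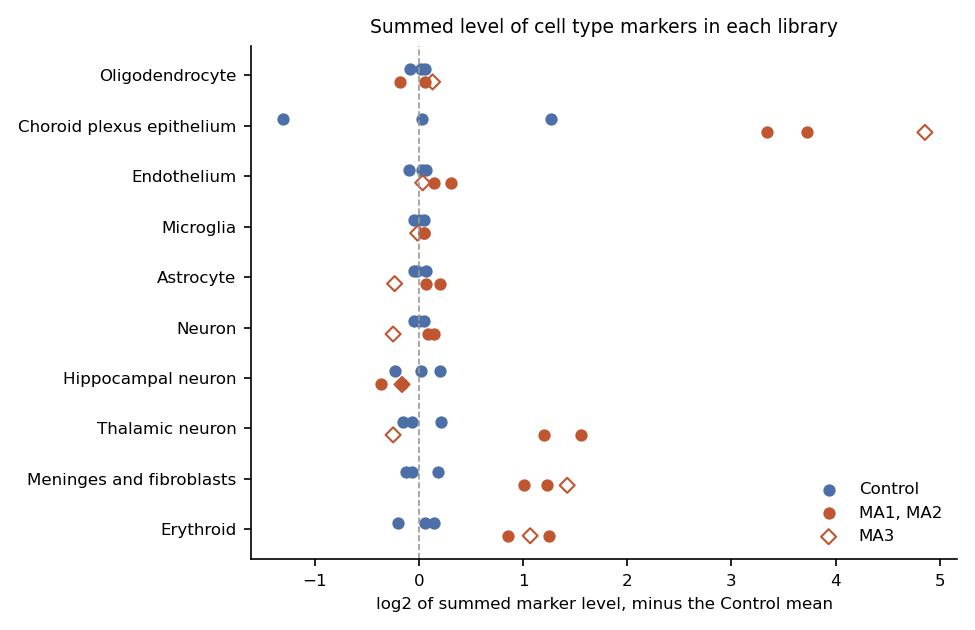
Summed back-transformed level of each cell type marker list, as log2 minus the mean of the Control libraries, with 1 point per library (blue, Control; orange, MA; open diamond, MA replicate 3). The choroid plexus, erythroid and meningeal sums lie to the right in all 3 MA libraries, and the thalamic sum in MA replicates 1 and 2.

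No member passed the test. At an adjusted p under 0.05 (limma, Benjamini-Hochberg over 13321 genes) 0 of the 9 members were called, beside 0.263% of all tested genes. An unadjusted p under 0.05 was reached by 1 of 9 (11.1%), beside 10.4% of all tested genes. The groups did not overlap for 2 of 9 (22.2%), Tfrc and Slc11a2, beside 17.5% of all tested genes, so both shares were near the background. Without MA replicate 3 the count at an adjusted p under 0.05 (limma) was again 0 of 9, beside 1.93% of all tested genes, and Ftl1, Tfrc, Trf and Slc11a2 (44.4%) had an unadjusted p under 0.05, beside 23.3%. With sample quality weights, which count each library by its spread, that share was 55.6%, beside 26.3%. Of the members, 4 had a higher and 5 a lower mean in MA libraries. The median difference of MA minus Control was -0.05 on the log2 scale, and the median over all tested genes was -0.01.

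**Figure D2:**
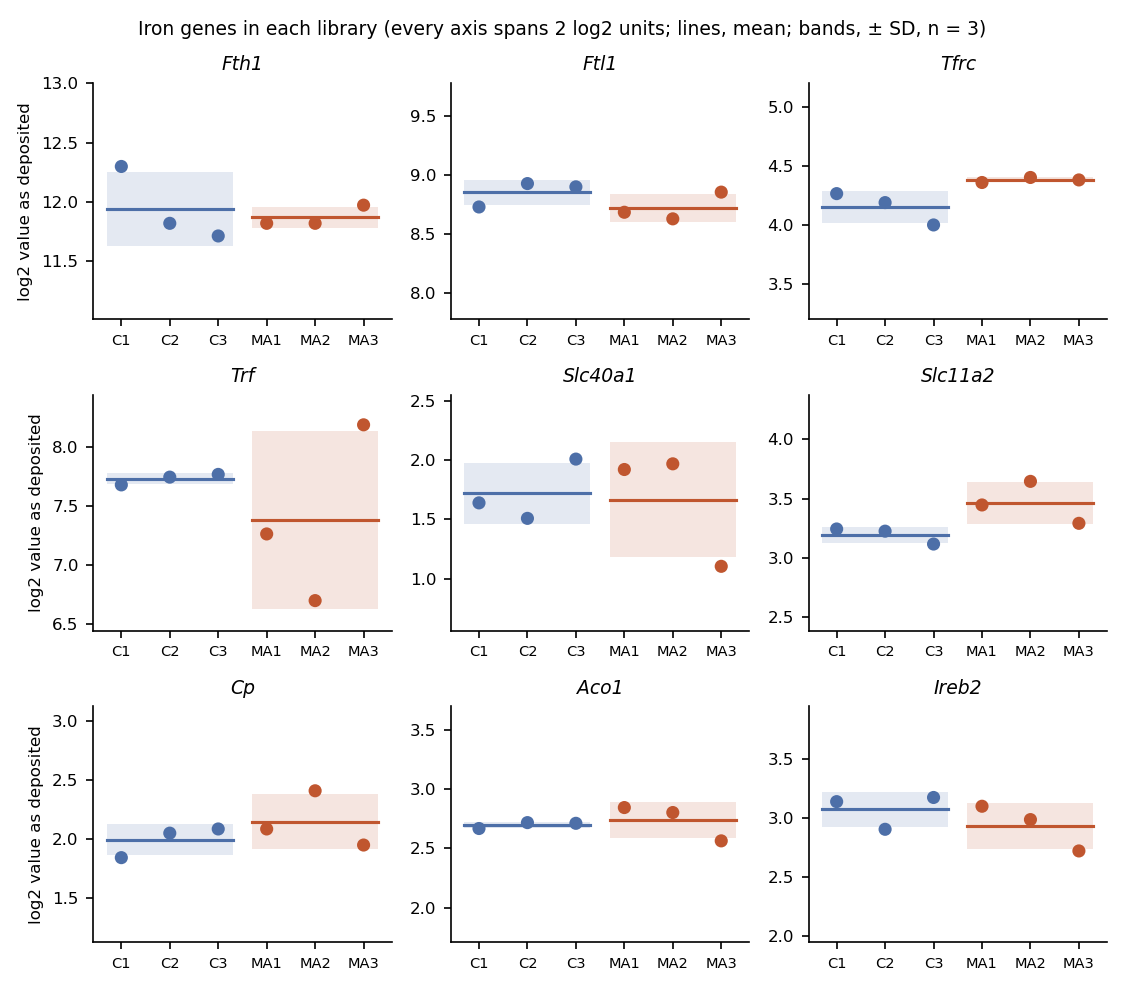
Deposited log2 value of each member in each library (C1 to C3, Control; MA1 to MA3, MA), with the mean as a line and ± SD as a band (n = 3); every vertical axis spans 2 log2 units. The Tfrc and Slc11a2 points of the MA libraries lie above all Control points, and Trf ranges from 6.70 to 8.19 within the MA group.

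The ferritin genes had the highest levels of the 9 members. Fth1 (ENSMUSG00000024661, chr19:9980598-9985098, plus strand) encodes the heavy chain, which oxidizes iron as it enters the shell. Its log2 values were 12.30, 11.82 and 11.71 in Control replicates 1, 2 and 3 and 11.82, 11.82 and 11.97 in MA replicates 1, 2 and 3. In Control replicate 1 Fth1 was the highest row, at the top value that all 6 libraries share, and the groups overlapped. Fth1 was between the 1st and the 4th highest row in every library, so its values could move only among those top ranks. In MA replicate 3 the highest row was Ttr, a choroid plexus marker, at 12.30. The difference of MA minus Control was -0.07 (limma standard error 0.15, 95% interval -0.43 to 0.28, adjusted p = 0.913). Without Control replicate 1 it was 0.10, and without MA replicate 3 it was -0.12.

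Ftl1 (ENSMUSG00000050708, chr7:45457944-45459884, minus strand) encodes the light chain, which aids mineral formation in the core. It was at 8.73, 8.93 and 8.90 in the Control libraries and 8.68, 8.63 and 8.85 in the MA libraries. MA replicate 3 lay among the Control values, and the other MA libraries lay below them. The difference was -0.13 (limma standard error 0.09, 95% interval -0.34 to 0.09, adjusted p = 0.690), and without MA replicate 3 it was -0.20 (limma adjusted p = 0.185). Ferritin genes have processed copies among which reads could be split. The copy Ftl2-ps had values of at most 0.66, and 2 further annotated genes overlap Ftl1, so its level is uncertain.

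The heavy chain was set against the light chain within each library. At these levels the libraries already shared nearly the same distribution. Fth1 was between the 1st and the 4th highest row, with the same value of 11.82 in Control replicate 2 and MA replicates 1 and 2. The small spread of the MA libraries cannot be read apart from these shared rank values. On the table's scale per gene length, Fth1 exceeded Ftl1 by 3.57, 2.89 and 2.81 log2 units in the Control libraries and by 3.13, 3.19 and 3.12 in the MA libraries. The MA libraries lay close together inside the Control range. The group means of 3.09 ± 0.42 and 3.15 ± 0.04 (SD, n = 3 each) did not differ beyond the spread (exact permutation test, two-sided, p = 1).

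Among the uptake genes, Tfrc and Slc11a2 were higher in each MA library. Tfrc (ENSMUSG00000022797, chr16:32608920-32632794, plus strand) encodes the transferrin receptor and is the member in whose 3′ untranslated region the search found 4 hairpins. Control libraries had log2 values of 4.26, 4.19 and 4.0 and MA libraries of 4.36, 4.40 and 4.38. The MA libraries lay close together, and the gap to the nearest Control library was 0.09. The difference was 0.23 (limma standard error 0.09, 95% interval 0.01 to 0.45), a fold of 1.17, with an unadjusted p of 0.0439 (limma) and an adjusted p of 0.464 (limma). The exact permutation test gave p = 0.1, the smallest that 3 libraries against 3 allow. Leaving out any 1 of the 6 libraries kept the difference between 0.15 and 0.29.

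Tfrc is abundant in capillary endothelium and in erythroid cells. The mean log2 value of the 8 endothelial markers was 3.51, 3.59 and 3.65 in the Control libraries and 4.0, 3.79 and 3.48 in the MA libraries. Relative to that mean, Tfrc differed between the groups by 0.05 and the groups overlapped, a scale chosen after the data were seen. The endothelial mean was lowest in MA replicate 3, where Tfrc was as high as in the other MA libraries. The summed endothelial level in MA replicate 3 was 184, inside the Control range of 168 to 188. Of the endothelial markers 2 of 8 had an unadjusted p under 0.05 (limma), both higher in MA, beside 4.99% higher over all tested genes. Cldn5, a tight junction protein, was among them (difference 0.30, groups not overlapping), and 0 markers passed the adjusted threshold. Without MA replicate 3 the count at an unadjusted p under 0.05 (limma) was 4 of 8, all higher, beside 23.3% of all tested genes in either direction. Slco1a4, a transporter of the blood-brain barrier, then passed (limma adjusted p = 0.0298). The part of the endothelial and erythroid markers in the Tfrc difference was not tested. In bulk tissue, more cells of a type and more RNA per cell cannot be told apart.

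Slc11a2 (ENSMUSG00000023030, chr15:100387898-100425072, minus strand) encodes the divalent metal transporter, which carries ferrous iron across endosomal and plasma membranes. The Control libraries were at 3.24, 3.22 and 3.12 (log2) and the MA libraries at 3.45, 3.65 and 3.29. MA replicate 3 was the lowest of its group and lay 0.05 above the highest Control library. The difference was 0.27 (limma standard error 0.11, 95% interval -0.00 to 0.53), a fold of 1.20, with an adjusted p of 0.478 (limma). The exact permutation p was 0.1. Without MA replicate 3 the difference was 0.35 (limma adjusted p = 0.101), and the smallest adjusted p over the 15 alternative settings was 0.0556, with sample quality weights (limma). The annotated gene Gm5475 overlaps Slc11a2 on the other strand, and whether counting used strand is not stated in the sources used here.

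**Figure D3:**
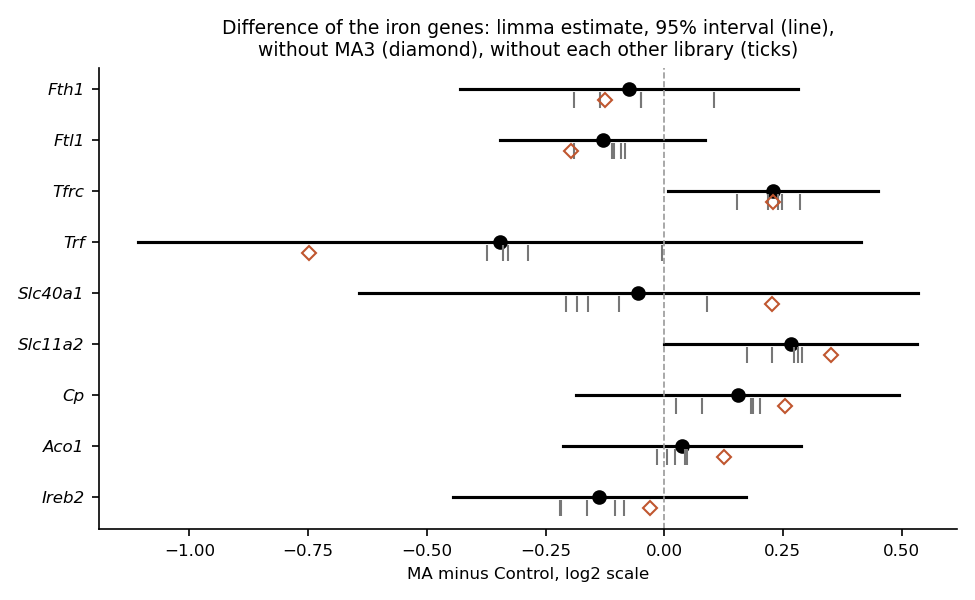
Difference of MA minus Control for each member on the log2 scale, as the limma estimate (dot) with its 95% interval (line), the estimate without MA replicate 3 (open diamond) and the estimates without each other library (ticks). The Tfrc interval runs from 0.01 to 0.45, and the Trf estimate moves from -0.35 to -0.75 without MA replicate 3.

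Trf, the transferrin gene (ENSMUSG00000032554, chr9:103204001-103230444, minus strand), varied most between libraries. On the log2 scale it was at 7.68, 7.75 and 7.77 in the Control libraries and 7.26, 6.70 and 8.19 in the MA libraries. MA replicates 1 and 2 lay below all Control libraries and MA replicate 3 above all of them. The SD was 0.05 in Control and 0.75 in MA libraries. The difference was -0.35 (limma standard error 0.33, 95% interval -1.11 to 0.41, adjusted p = 0.770). Without MA replicate 3 it was -0.75 (limma standard error 0.15, unadjusted p = 0.00210, adjusted p = 0.0656), and without MA replicate 2 it was -0.00.

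Oligodendrocyte markers varied between the same libraries. Their mean log2 value was 6.82, 6.99 and 6.68 in the Control libraries and 6.66, 6.26 and 6.90 in the MA libraries, lowest in MA replicate 2 as for Trf. Mbp, myelin basic protein, was at 10.87, 10.84 and 10.80 in the Control libraries and at 11.03, 10.77 and 11.03 in the MA libraries, also lowest in MA replicate 2. Of the 9 markers 8 had a lower mean in MA libraries, with a median difference of -0.20, and 0 had an unadjusted p under 0.05 (limma). Without MA replicate 3 it was 6 of 9, all lower, beside 23.3% of all tested genes in either direction, and 0 passed the adjusted threshold. Relative to the marker mean, Trf was at 0.85, 0.76 and 1.09 in the Control libraries and at 0.61, 0.44 and 1.28 in the MA libraries. On that scale, chosen after the data were seen, the difference was -0.12 and the groups overlapped. Choroid plexus epithelium also makes transferrin, and its summed markers were highest in MA replicate 3, at 5122. In MA replicates 1 and 2 they were 1793 and 2333, against 71.6 to 426 in Control libraries. Trf in those 2 libraries was below all Control libraries. The part of either cell type in the Trf values was not tested. The gene Gm20425 overlaps Trf on the same strand.

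**Figure D4:**
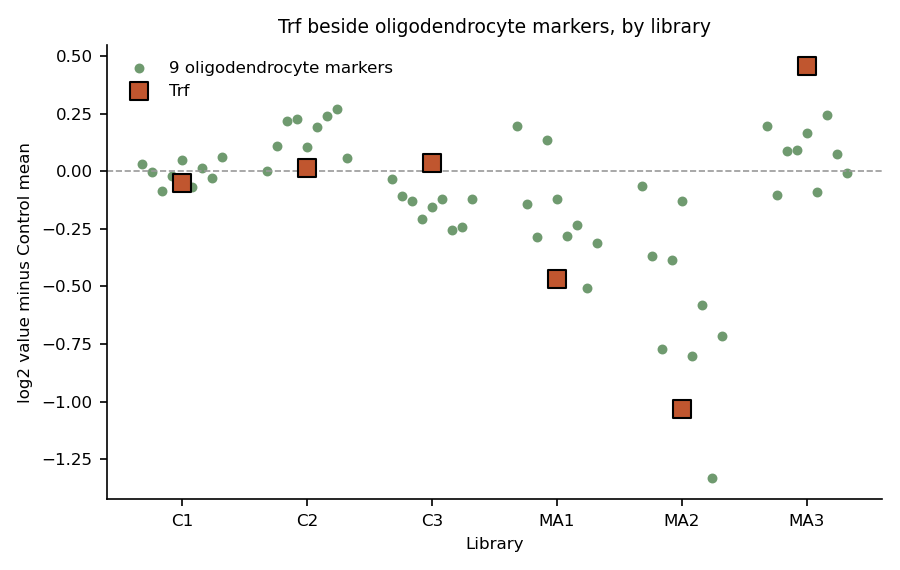
Log2 value of Trf (squares) and of 9 oligodendrocyte markers (dots) in each library, each minus its own Control mean. In MA replicate 2 Trf and all 9 markers lie below the dashed line, and in MA replicate 3 Trf lies above every marker.

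The export genes had the lowest levels of the 9 members. Slc40a1 (ENSMUSG00000025993, chr1:45908068-45926523, minus strand) encodes ferroportin, the only known iron exporter of mammalian cells. Its levels (log2) were 1.64, 1.51 and 2.01 in the Control libraries and 1.92, 1.97 and 1.10 in the MA libraries. MA replicate 3 was the lowest of all libraries, and the other MA libraries lay inside the Control range. The difference was -0.05 (limma standard error 0.25, 95% interval -0.64 to 0.53, adjusted p = 0.961) and turned to 0.23 without MA replicate 3 (limma adjusted p = 0.438). Relative to the mean of the endothelial markers, a scale chosen after the data were seen, the difference was -0.23 with overlapping groups. No other marker list was used as a reference for Slc40a1.

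Cp (ENSMUSG00000003617, chr3:19957054-20009145, plus strand) encodes ceruloplasmin, the copper ferroxidase that works with ferroportin on astrocytes. It was at 1.84, 2.05 and 2.08 in the Control libraries and 2.08, 2.41 and 1.95 in the MA libraries. MA replicate 2 was above all Control libraries, and the groups overlapped. The difference was 0.16 (limma standard error 0.15, 95% interval -0.18 to 0.49, adjusted p = 0.769). It was 0.25 without MA replicate 3, 0.02 without MA replicate 2 and 0.08 without Control replicate 1. Hps3 overlaps Cp on the other strand and had values between 2.23 and 2.60, above those of Cp in 5 of the 6 libraries, so the Cp level is uncertain.

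The genes of the iron regulatory proteins overlapped between the groups. Aco1 (ENSMUSG00000028405, chr4:40143081-40198338, plus strand) encodes IRP1, which is an aconitase when it holds an iron-sulfur cluster and binds the hairpin when it does not. It was at 2.67, 2.72 and 2.71 in the Control libraries and 2.85, 2.80 and 2.56 in the MA libraries. MA replicates 1 and 2 were above and MA replicate 3 below all Control libraries. The difference was 0.04 (limma standard error 0.11, 95% interval -0.21 to 0.29, adjusted p = 0.939). It was 0.12 without MA replicate 3, 0.01 without MA replicate 2 and -0.02 without MA replicate 1.

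Ireb2 (ENSMUSG00000032293, chr9:54863789-54912530, plus strand) encodes IRP2, which has no aconitase activity and is degraded when iron is plentiful. Its log2 values were 3.14, 2.90 and 3.17 in the Control libraries and 3.10, 2.98 and 2.72 in the MA libraries. MA replicate 3 was the lowest, and the groups overlapped. The difference was -0.14 (limma standard error 0.13, 95% interval -0.45 to 0.17, adjusted p = 0.779). It was -0.03 without MA replicate 3, and -0.22 without Control replicate 2 or without MA replicate 1. Aco1 minus Ireb2 was -0.37 ± 0.16 in Control and -0.19 ± 0.05 in MA libraries (SD, n = 3 each; exact permutation test, two-sided, p = 0.2).

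The receptor was set against storage as Tfrc minus Fth1 within each library, where Fth1 again could move only among the top ranks. The log2 difference was -8.03, -7.63 and -7.71 in the Control libraries and -7.46, -7.42 and -7.59 in the MA libraries. Every MA library lay above every Control library, with group means of -7.79 ± 0.21 and -7.49 ± 0.09 (SD, n = 3 each). The exact permutation test, two-sided, gave p = 0.1, the smallest the design allows, and 0.3 after adjustment over the 3 within-library differences. Without Control replicate 1, where Fth1 was highest, the group difference was 0.18 instead of 0.30.

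Ordered by mean log2 level per gene length in the Control libraries, the members ran Fth1, Ftl1, Trf, Tfrc, Slc11a2, Ireb2, Aco1, Cp and Slc40a1, from 11.94 to 1.72. The order was the same in the MA libraries, from 11.87 to 1.67. Neighbours overlapped for Slc11a2 with Ireb2 and for Cp with Slc40a1 in the Control libraries, and for Ireb2 with Aco1 and for Cp with Slc40a1 in the MA libraries.

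A wider list of 52 genes of iron handling was read from the same fit, of which 45 had a row and 40 were tested. None passed the adjusted threshold (limma), 8 were higher and 1 lower at an unadjusted p under 0.05, beside 4.99% higher and 5.46% lower over all tested genes. The groups did not overlap for 10 of 40, 7 higher and 3 lower, beside 7.32% higher and 10.2% lower over all tested genes. The median difference was 0.03. Among the genes of uptake and reduction, Steap1, of the STEAP metalloreductase family, had log2 values of 0.28, 0.49 and 0.92 in the Control and 1.45, 2.29 and 2.72 in the MA libraries. Its difference was 1.59 (limma standard error 0.32, adjusted p = 0.150). Steap2, of the same family, was 0.75 higher (limma standard error 0.12, adjusted p = 0.0785) and Steap3, the endosomal reductase of erythroid cells, was 0.35 lower (limma standard error 0.15, adjusted p = 0.470). Over the 6 libraries Steap1 had the same order of levels as the summed choroid plexus markers, whose part in its difference was not tested.

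Of the systemic regulators, Hfe, which binds the transferrin receptor, was 0.42 higher (limma standard error 0.17, adjusted p = 0.464), or 0.23 higher without MA replicate 3. Heph, the membrane ferroxidase hephaestin, was at 1.06, 1.01 and 1.04 in the Control libraries and at 1.61, 1.54 and 1.20 in the MA libraries, a difference of 0.41 (limma standard error 0.13, adjusted p = 0.350). Alas2, the heme synthesis enzyme of red cell precursors, whose mRNA carries a 5′ hairpin, was at 2.29, 2.62 and 2.43 in the Control libraries and at 3.13, 3.13 and 3.86 in the MA libraries. Its difference was 0.93 (limma standard error 0.21, adjusted p = 0.208, or 0.0448 without MA replicate 3), and it is also one of the 5 erythroid markers above. The 17 tested genes of mitochondrial iron and iron-sulfur clusters had a median difference of -0.00, with 8 higher and 9 lower and 0 at an unadjusted p under 0.05 (limma). The 4 genes of heme breakdown and transport likewise held 0 at that threshold.

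**Figure D5:**
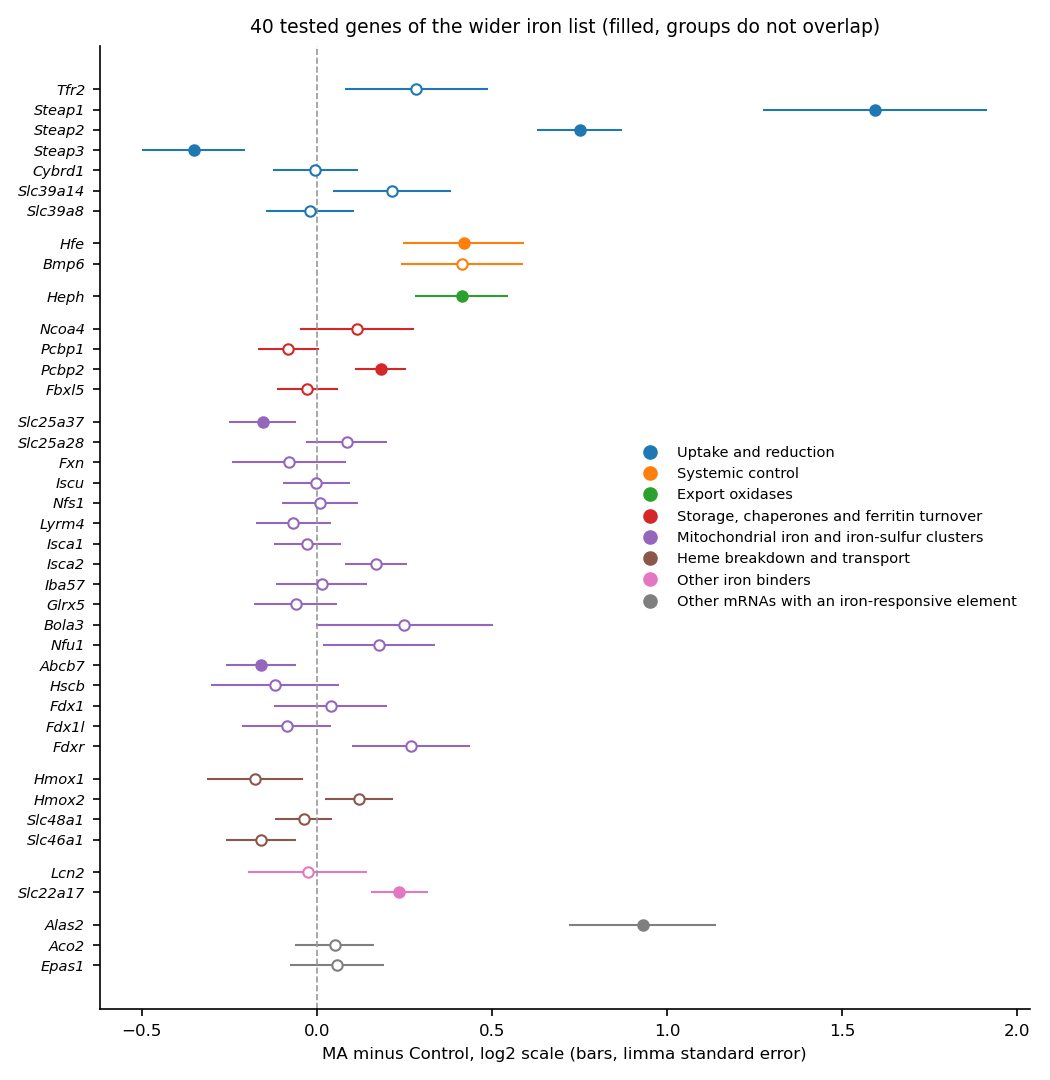
Difference of MA minus Control on the log2 scale for the 40 tested genes of the wider iron list, grouped by role, with the limma standard error as bars. Filled points mark the 10 genes whose groups do not overlap, and Steap1 at 1.59, Alas2 at 0.93 and Steap2 at 0.75 lie farthest to the right.

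For the 5 members whose values spanned over 0.5 log2 units, the tested genes with the most similar profile over the 6 libraries were found by the root-mean-square difference of mean-centred log2 values. They were Smc4, Cacna1a and Bambi for Fth1 (0.0488 to 0.0644) and Flii, Abhd11os and Pla2g4b for Trf (0.130 to 0.148). For Slc40a1 they were Slc24a4, Ptar1 and Acbd7 (0.0336 to 0.0522). Peak1, Zfand4 and Tgfbr3 were nearest to Slc11a2 (0.0285 to 0.0365), and Zfp444, Phactr3 and Fam65b to Cp (0.0407 to 0.0538). Flii followed the Trf profile with 4.80, 4.93 and 4.76 in the Control libraries and 4.50, 3.89 and 5.05 in the MA libraries, lowest in MA replicate 2 and highest in MA replicate 3. These genes were picked from 13321 for their likeness over 6 libraries, and the values are a description.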

How the data were processed

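Per the study's methods, paired-end reads were aligned by Hisat2, featureCounts gave gene counts, and these were converted to FPKM. The submitters' processing notes instead name Bowtie 0.12.2 and the builds mm8 and mm9, so the build is uncertain and GRCm38 coordinates are given for location only. The table the authors deposited holds log2 values, as read here from their range and lowest value of 0, with an offset of 1 inferred. The libraries share 1 highest value, and sorted values above the median rank differ by at most 0.0285. Neither the log transform nor this normalization is described. Depth is unknown, so precision rests on the spread between mice.

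Rows whose back-transformed value reached 0.5 in 3 or more libraries entered, as deposited, limma 3.58.1 in R 4.3.3 (lmFit, eBayes with trend), MA minus Control, with Benjamini-Hochberg adjustment over 13321 rows. In 10 simulated tables of 13321 genes with 200 shifted by 1 log2 unit, the median share recovered was 93.8% and 5.36% of calls were false. The simulated noise was normal and held no library that stood apart. The shift was larger than the difference of any member, so the recovery does not apply to the members. Single values had an exact permutation test. Alternatives changed the filter, pseudocount, centring, normalization, variance trend, sample weights and replicate block, or left out each library, and values relative to markers were added after seeing the data. The named genes were all 9 members, wider-list and marker genes past an adjusted p of 0.05, up to 6 further wider-list genes with the largest difference among those whose groups did not overlap, and the 3 nearest profiles. The first markers of a list set beside a member could also be named. Hps3, Ftl2-ps, Slc22a17, Slco1a4, Dcn, Igf2 and the immediate early genes were named after their values were seen. The members and lists were chosen with earlier results of these data known. The 7 wider-list genes without a row were not analysed here.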

Additional observations from a re-analysis of the deposited data

How the results depend on the processing

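In all 15 alternative settings 0 of the 9 members passed an adjusted p under 0.05 (limma), and their directions held except in these cases. Fth1 turned to 0.10 without Control replicate 1, and Aco1 to -0.016 without MA replicate 1. Slc40a1 turned to 0.22 with sample quality weights, 0.09 without Control replicate 3 and 0.23 without MA replicate 3. Fth1 minus Ftl1 turned to -0.044 without Control replicate 2 and -0.084 without Control replicate 3. With 1 library left out, the ranges were -0.092 to 0.12 for the median over the members, -0.19 to 0.10 for Fth1, -0.21 to 0.23 for Slc40a1, -0.016 to 0.12 for Aco1 and -0.084 to 0.30 for Fth1 minus Ftl1.

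Over all genes 35 passed the adjusted threshold. The count was 3 with no filter, 20 with a minimum mean of 5, 586 with sample quality weights and 0 to 257 with 1 library left out (257 without MA replicate 3, 15 without MA replicate 1, 3 without Control replicate 1 and 0 without each of the others). In the wider list it was 6 with sample quality weights (Steap1, Steap2, Steap3, Heph, Slc22a17 and Alas2) and 0 to 1 with 1 library left out (Alas2, without MA replicate 3). The cause of these shifts was not tested. Same-numbered libraries did not deviate together (correlations across genes of -0.197, -0.242 and -0.337, and 0 of 6 libraries correlated best with their own number). With the replicate block 15 genes passed, 13 of them among the 35. Of the 8 named choroid plexus and erythroid genes 2 kept their call. In that fit 0 members had an unadjusted p under 0.05 (limma). The share of all tested genes at that threshold was not computed for this fit, so the count has no background beside it. Under the strict filter Slc40a1 and Cp were not tested. For low genes such as these, differences on this log scale understate the change.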

Other observations

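Of the wider iron list, 5 genes had a row but fell under the filter on low values. Steap4, a metalloreductase, had log2 values of 0.10, 0.18 and 0.09 in the Control libraries and of 0.22, 0.33 and 0.37 in the MA libraries, each higher than every Control library, at a level where the scale compresses differences. Tmprss6, a protease that restrains hepcidin, was at 0.30, 0.43 and 0.38 in the Control libraries and at 0.04, 0.34 and 0.44 in the MA libraries, with overlapping groups. Hfe2, Ltf and Mfi2 had values of at most 0.40 and overlapping groups.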
